A study of Mus musculus with 15 samples.

Results

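NSD2 KO and WT mouse embryonic fibroblasts (MEFs) were compared 24 h after interferon had been washed out of the medium. MEFs are connective tissue cells grown from mouse embryos, here of the strain c57bl/6. The NSD2 KO cells are labelled Nsd2(-/-) and were pretreated with interferon for 3 h, washed, kept without interferon for 24 h and sampled at the start of the restimulation series, at 0 h (2 libraries). The WT cells are labelled Nsd2(+/+) and had the same 3 h exposure, wash and 24 h without interferon (2 libraries). Both kinds grew in DMEM with 10% donor bovine serum. The interferon was mouse recombinant interferon beta; the labels state 100 units per ml for the 2 h treatment and give no separate dose for the 3 h exposure. These 4 libraries were chosen by their titles from the 15 of the study. Their values are raw read counts for 24015 genes, of which 13802 passed a filter on low counts and were tested. For comparison with cells that had met no interferon, the study also holds 2 NSD2 KO and 2 WT libraries of naive cells at 0 h, and for restimulated cells 2 NSD2 KO and 2 WT libraries 2 h after interferon was given again. The labels give neither the age or number of embryos nor whether the libraries of a genotype came from separate cultures, and they do not say which part of the Nsd2 gene is deleted.

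NSD2, for which the count tables use the name Whsc1, is a histone methyltransferase that places methyl groups on lysine 36 of histone H3, a mark of transcribed and intergenic chromatin that opposes the Polycomb mark on lysine 27. Type I interferons bind the receptor pair Ifnar1 and Ifnar2, whose kinases Jak1 and Tyk2 activate STAT proteins. With Irf9 these, Stat2 among them, form a complex that binds interferon-stimulated response elements in the promoters of interferon-stimulated genes. Fibroblasts carry this pathway at a low resting level, and some interferon-stimulated genes stay raised after the cytokine is gone.

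The 2 NSD2 KO libraries held 35972309 and 28585502 counts in genes, and the 2 WT libraries 27147621 and 27768215. The ribosomal precursor Rn45s and Lars2 together took 29.4% and 18.99% of these counts in the NSD2 KO libraries, against 25.7% and 27.1% in the WT libraries. NSD2 KO replicate 2 is therefore low in them. It is 1 of 3 such libraries in the study. Values below are CPM, the count of a gene divided by the scaled library size, written as replicate 1 and replicate 2 of a genotype, or as mean ± SD (n = 2). Log2 changes are NSD2 KO over WT with their standard error, so that 1 unit is a 2-fold difference. A gene is called when edgeR's quasi-likelihood test gives a Benjamini-Hochberg adjusted p below 0.05 over all 13802 genes. The p-values rest on the variation among libraries that the labels do not tie to separate cultures, so it may be technical only. In these bulk samples fewer cells of one type cannot be told apart from less RNA per cell.

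The NSD2 KO and WT libraries differed at most genes. Without labels of separate embryos or cultures, genotype cannot be told apart from other differences between the cell preparations. Of the 13802 genes tested, 4530 (32.8%) were higher and 4395 (31.8%) lower in NSD2 KO than in WT, 8925 in all (64.7%). Most of these differences were small: the median absolute log2 change over all genes was 0.36, and the median log2 change was 0.0011. At least 2-fold differences were called for 1483 genes higher (10.7%) and 1014 genes lower (7.35%) in NSD2 KO. At least 4-fold differences numbered 1367 and at least 16-fold differences 612. Genes averaging at least 10 CPM in NSD2 KO and under 0.5 CPM in WT numbered 51, and 28 genes averaged under 0.5 CPM in NSD2 KO and at least 10 CPM in WT. The libraries of the genotypes did not overlap, with NSD2 KO above WT, for 40.7% of the genes tested, and with NSD2 KO below WT for 39.8%.

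**Figure D1:**
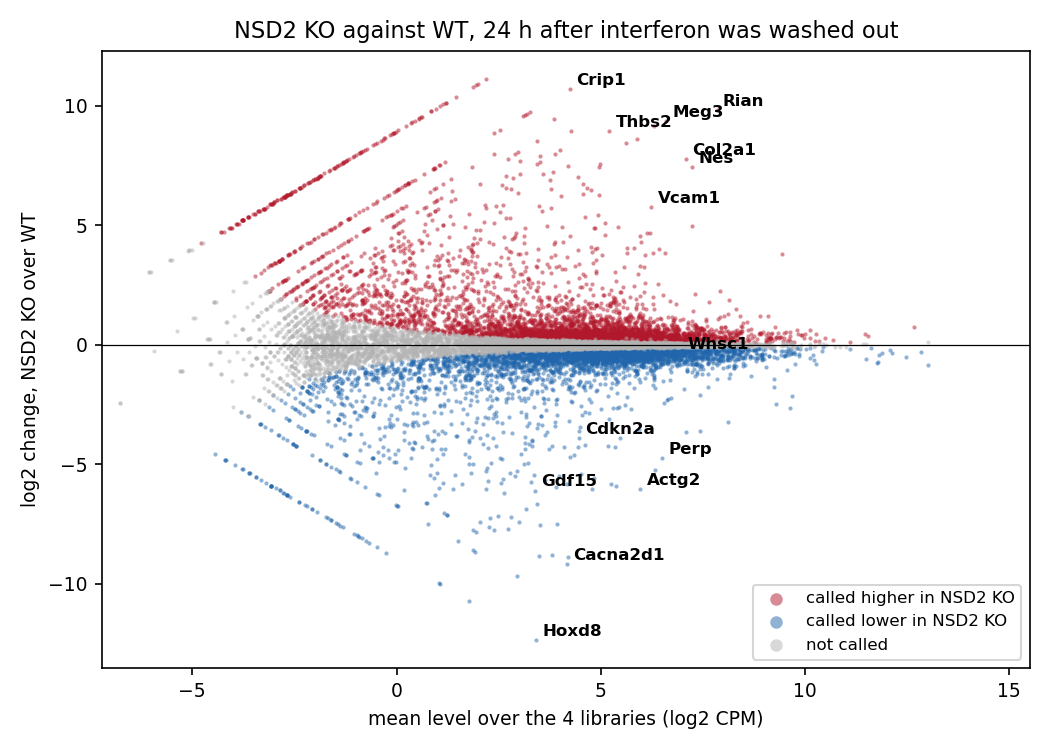
Log2 change of NSD2 KO over WT (vertical axis) against the mean level of the 4 libraries in log2 CPM (horizontal axis) for the genes tested, coloured by call; each point is 1 gene. Crip1 lies at 10.72 and Hoxd8 at -12.34, with Whsc1 close to 0 at -0.35; the slanted rows of points at low levels are genes with 0, 1 or a few counts on one side.

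The targeted gene was still counted in NSD2 KO. Whsc1 had 109 and 110.5 CPM in NSD2 KO, against 146 and 133 CPM in WT. Both NSD2 KO libraries lay below both WT libraries; the log2 change was -0.35 ± 0.046, with an edgeR adjusted p of 1.1e-07. Because transcripts that lack a deleted stretch are still counted, this level neither bears out nor goes against the genotype labels, and the genotypes stand as labelled. Of 19 tested neighbours of Whsc1 on its chromosome, 2 were higher and 7 lower in NSD2 KO with a median log2 change of -0.13. Over all genes 32.8% were higher and 31.8% lower. None of the neighbours was called at 2-fold. The 2 higher became 1 without NSD2 KO replicate 2 and also without the 3 libraries low in Rn45s and Lars2.

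Other enzymes of the same mark were called at a share near that of all genes. Among 14 genes that write or erase methylation of lysine 36, 5 were higher and 3, Whsc1 included, lower in NSD2 KO, beside 64.7% of all genes called in either direction. Setd2, which adds the third methyl group, had 261 and 255 CPM in NSD2 KO, against 125 and 117 CPM in WT. The genotypes did not overlap, and Setd2 was higher by 1.09 ± 0.049 on the log2 scale (edgeR adjusted p = 4.3e-18). Kdm8 had 3.06 and 3.27 CPM in NSD2 KO, against 1.02 and 1.44 CPM in WT and was higher by 1.36 ± 0.22 (edgeR adjusted p = 3.2e-06). Nsd1, a relative of NSD2, had 44.4 and 47.8 CPM in NSD2 KO, against 54.1 and 56.6 CPM in WT (log2 change -0.26 ± 0.059, edgeR adjusted p = 3.0e-04), and Setmar, the third gene called lower, had 0.709 and 0.904 CPM in NSD2 KO, against 2.44 and 1.89 CPM in WT. Of 18 genes of the Polycomb complex PRC2 and of DNA methylation, 10 were higher and 5 lower, and of 21 genes for histone H3.3, its chaperones and elongation factors, 10 were higher and 8 lower, beside 32.8% higher and 31.8% lower over all genes. None of these genes was called at 2-fold, and the median log2 changes of the lists were 0.19 and 0.088.

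Interferon-stimulated genes were mostly higher in NSD2 KO a day after the cytokine had been removed. Of 65 tested antiviral effectors, 50 were higher and 6 lower in NSD2 KO, with a median log2 change of 1.55 beside 0.0011 over all genes. Higher calls thus made up 50 of 65 here, against 32.8% of all genes tested. In naive cells 41 of the 65 were already higher and 8 lower in NSD2 KO, with a median of 0.85, beside 34.3% and 32.7% of all genes. The summed level of the list was 1576 to 1660 CPM in NSD2 KO and 1097 to 1161 CPM in WT. Without NSD2 KO replicate 1 the number of members called lower was 3.

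Isg15, a ubiquitin-like modifier, had 7.17 and 8.20 CPM in NSD2 KO, against 0.728 and 1.15 CPM in WT. Both NSD2 KO libraries stood far above both WT libraries, and the log2 change was 3.03 ± 0.18 (edgeR adjusted p = 3.2e-15). Usp18, the protease that removes ISG15 and dampens the receptor, had 13.8 and 16.4 CPM in NSD2 KO, against 3.06 and 3.36 CPM in WT (log2 change 2.23 ± 0.12, edgeR adjusted p = 8.8e-16). Bst2, the tetherin that holds budding viruses at the membrane, had 35.9 and 41.4 CPM in NSD2 KO, against 10.2 and 11.1 CPM in WT (log2 change 1.86 ± 0.091, edgeR adjusted p = 5.3e-17). In each of these genes the lowest NSD2 KO library exceeded the highest WT library.

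Ifit1, which binds foreign RNA caps, had 9.93 and 11.04 CPM in NSD2 KO, against 2.11 and 2.00 CPM in WT (log2 change 2.35 ± 0.21, edgeR adjusted p = 4.6e-11). Ifit3 had 5.16 and 4.87 CPM in NSD2 KO, against 1.20 and 1.44 CPM in WT (log2 change 1.92 ± 0.28, edgeR adjusted p = 8.0e-07), and Ifit2 had 38.9 and 40.4 CPM in NSD2 KO, against 29.2 and 28.1 CPM in WT, a smaller gap of 0.47 ± 0.073 (edgeR adjusted p = 2.3e-06). The family members thus shared the direction and differed in size.

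Oas2, an oligoadenylate synthetase that senses double-stranded RNA, had 4.48 and 4.87 CPM in NSD2 KO, against 0.218 and 0.185 CPM in WT (log2 change 4.50 ± 0.27, edgeR adjusted p = 9.5e-15). Trim25, a ubiquitin ligase of the RIG-I pathway, had 15.6 and 16.9 CPM in NSD2 KO, against 0.146 and 0.0739 CPM in WT (log2 change 7.15 ± 0.26, edgeR adjusted p = 2.5e-20). Parp12, a PARP family member, had 27.2 and 27.7 CPM in NSD2 KO, against 1.49 and 1.40 CPM in WT (log2 change 4.24 ± 0.12, edgeR adjusted p = 2.3e-23). All 3 genes were low in both WT libraries and far above them in both NSD2 KO libraries.

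Several low members were also higher. Rsad2, or viperin, had 1.64 and 1.497 CPM in NSD2 KO, against 0.473 and 0.370 CPM in WT (edgeR adjusted p = 3.3e-06), and Mx2 had 1.93 and 2.34 CPM in NSD2 KO, against 0.328 and 0.702 CPM in WT (edgeR adjusted p = 6.7e-08). Mx1 had 0.482 and 0.811 CPM in NSD2 KO, against 0.218 and 0.0370 CPM in WT at a log2 change of 2.28 ± 0.68 (edgeR adjusted p = 0.00438). That call was lost without WT replicate 2 (log2 change 1.53, adjusted p = 0.0711) or without NSD2 KO replicate 2 (1.88, adjusted p = 0.0565). Lgals3bp, a secreted glycoprotein, had 46.6 and 47.8 CPM in NSD2 KO, against 14.9 and 16.6 CPM in WT (log2 change 1.59 ± 0.079, edgeR adjusted p = 6.4e-17). Cxcl10 had 0.907 and 0.561 CPM in NSD2 KO, against 0.364 and 0.518 CPM in WT, and its change of 0.75 ± 0.37 did not pass the test (edgeR adjusted p = 0.0787).

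The signalling genes had smaller changes. Of 25 tested genes of the interferon pathway, 19 were higher and 1 lower in NSD2 KO, with a median log2 change of 0.39. These counts stand beside 32.8% higher and 31.8% lower over all genes. In naive cells 18 of the 25 were already higher and none lower by this test, beside 34.3% and 32.7% over all genes. The gene called lower was Socs1, an inhibitor of JAK signalling named here after its values were seen, with 5.08 and 4.65 CPM in NSD2 KO, against 5.90 and 6.88 CPM in WT (log2 change -0.39 ± 0.14, edgeR adjusted p = 0.0179). Its call was lost without WT replicate 2, without NSD2 KO replicate 2 and without the 3 libraries low in Rn45s and Lars2. Without NSD2 KO replicate 1 the list had 2 genes called lower. Irf9, the DNA-binding partner of Stat2, had 43.1 and 46.7 CPM in NSD2 KO, against 13.4 and 15.7 CPM in WT. The genotypes were well apart at 1.63 ± 0.074 on the log2 scale (edgeR adjusted p = 8.7e-18). Stat2 had 32.6 and 32.0 CPM in NSD2 KO, against 15.98 and 14.05 CPM in WT (log2 change 1.10 ± 0.075, edgeR adjusted p = 1.2e-13). Irf7, which amplifies interferon production, had 6.24 and 6.92 CPM in NSD2 KO, against 1.42 and 1.48 CPM in WT (log2 change 2.18 ± 0.14, edgeR adjusted p = 3.5e-14). The receptor gene Ifnar1 had 80.8 and 77.8 CPM in NSD2 KO, against 48.5 and 48.6 CPM in WT (log2 change 0.71 ± 0.049, edgeR adjusted p = 1.8e-13) and the kinase gene Tyk2 had 39.7 and 36.1 CPM in NSD2 KO, against 19.1 and 17.9 CPM in WT (log2 change 1.04 ± 0.067, edgeR adjusted p = 4.3e-14). Socs3, a relative of Socs1, had 30.3 and 27.04 CPM in NSD2 KO, against 11.6 and 10.5 CPM in WT (log2 change 1.37 ± 0.085, edgeR adjusted p = 1.2e-14). In each of the 6 genes Irf9, Stat2, Irf7, Ifnar1, Tyk2 and Socs3 both NSD2 KO libraries were above both WT libraries.

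Of 15 tested interferon-inducible GTPases, which attack the vacuoles of intracellular pathogens, 11 were higher and none lower in NSD2 KO by this test, with a median log2 change of 2.02. The shares over all genes were 32.8% higher and 31.8% lower. In naive cells 7 of the 15 were higher and 2 lower in NSD2 KO, with a median of 0.43, beside 34.3% and 32.7% over all genes. Iigp1 had 7.17 and 7.30 CPM in NSD2 KO, against 0.619 and 0.481 CPM in WT (log2 change 3.71 ± 0.22, edgeR adjusted p = 8.3e-15), and the more abundant Irgm1 had 99.2 and 105 CPM in NSD2 KO, against 59.7 and 62.6 CPM in WT (log2 change 0.74 ± 0.058, edgeR adjusted p = 2.6e-12). Gbp7 had 4.03 and 4.12 CPM in NSD2 KO, against 0.947 and 1.07 CPM in WT (log2 change 2.01 ± 0.22, edgeR adjusted p = 5.5e-09). Gbp2 had 4.76 and 3.77 CPM in NSD2 KO, against 2.91 and 3.92 CPM in WT, where the genotypes overlapped and the change of 0.33 ± 0.16 did not pass the test (edgeR adjusted p = 0.0747). Near-identical copies in this family, such as Tgtp2 and its paralog, can share reads, so the split between copies is uncertain.

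Genes that present peptides on MHC class I followed: 15 of 22 tested were higher and 3 lower in NSD2 KO, with a median log2 change of 0.71. The shares over all genes were 32.8% higher and 31.8% lower. In naive cells 15 of the 22 were higher and 5 lower in NSD2 KO, with a median of 0.44, beside 34.3% and 32.7% over all genes. H2-K1, a classical class I heavy chain, had 27.1 and 27.2 CPM in NSD2 KO, against 0.364 and 0.665 CPM in WT. It was close to absent in WT and higher in NSD2 KO by 5.71 ± 0.14 (edgeR adjusted p = 2.5e-24), while H2-D1, expressed in both, had 57.3 and 59.2 CPM in NSD2 KO, against 31.3 and 33.9 CPM in WT (log2 change 0.84 ± 0.059, edgeR adjusted p = 2.8e-13). The H2 genes resemble each other, so the split of reads among them, and with it this difference, is uncertain. The light chain gene B2m had 432 and 449 CPM in NSD2 KO, against 259.6 and 272 CPM in WT (log2 change 0.73 ± 0.046, edgeR adjusted p = 2.2e-14). Nlrc5, the transcriptional activator of class I genes, had 14.2 and 13.8 CPM in NSD2 KO, against 0.692 and 0.555 CPM in WT, with both NSD2 KO libraries far above WT (4.48 ± 0.14, edgeR adjusted p = 1.3e-21).

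Among 19 sensors of foreign nucleic acid, 12 were higher and 4 lower in NSD2 KO, with a median log2 change of 0.67. In naive cells 9 of the 19 were higher and 5 lower, with a median of 0.43, beside 34.3% and 32.7% over all genes. Ifih1, the double-stranded RNA sensor MDA5, had 8.11 and 9.73 CPM in NSD2 KO, against 1.35 and 1.48 CPM in WT (log2 change 2.65 ± 0.15, edgeR adjusted p = 2.4e-15). Ddx58, the sensor RIG-I, had 46.8 and 52.3 CPM in NSD2 KO, against 29.0 and 33.3 CPM in WT (log2 change 0.67 ± 0.064, edgeR adjusted p = 2.3e-10). Toll-like receptors split: Tlr4 had 32.6 and 36.6 CPM in NSD2 KO, against 15.3 and 13.1 CPM in WT (edgeR adjusted p = 1.5e-14), and Tlr3 had 4.20 and 3.81 CPM in NSD2 KO, against 7.86 and 7.17 CPM in WT, the opposite order (edgeR adjusted p = 2.3e-08). Of 21 chemokines and cytokines, 7 were higher and 6 lower, and the median was -0.15. Over all genes 32.8% were higher and 31.8% lower. Cx3cl1 had 78.9 and 77.7 CPM in NSD2 KO, against 15.51 and 14.01 CPM in WT and Cxcl12 had 508 and 502 CPM in NSD2 KO, against 258 and 263 CPM in WT, both higher in NSD2 KO (log2 changes 2.41 ± 0.065 and 0.96 ± 0.044, edgeR adjusted p = 1.5e-23 and 1.2e-17). Ptgs2, the inducible cyclooxygenase gene of this list, had 94.3 and 91.9 CPM in NSD2 KO, against 164 and 164 CPM in WT and was lower in NSD2 KO (log2 change -0.82 ± 0.048, edgeR adjusted p = 4.0e-15).

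**Figure D2:**
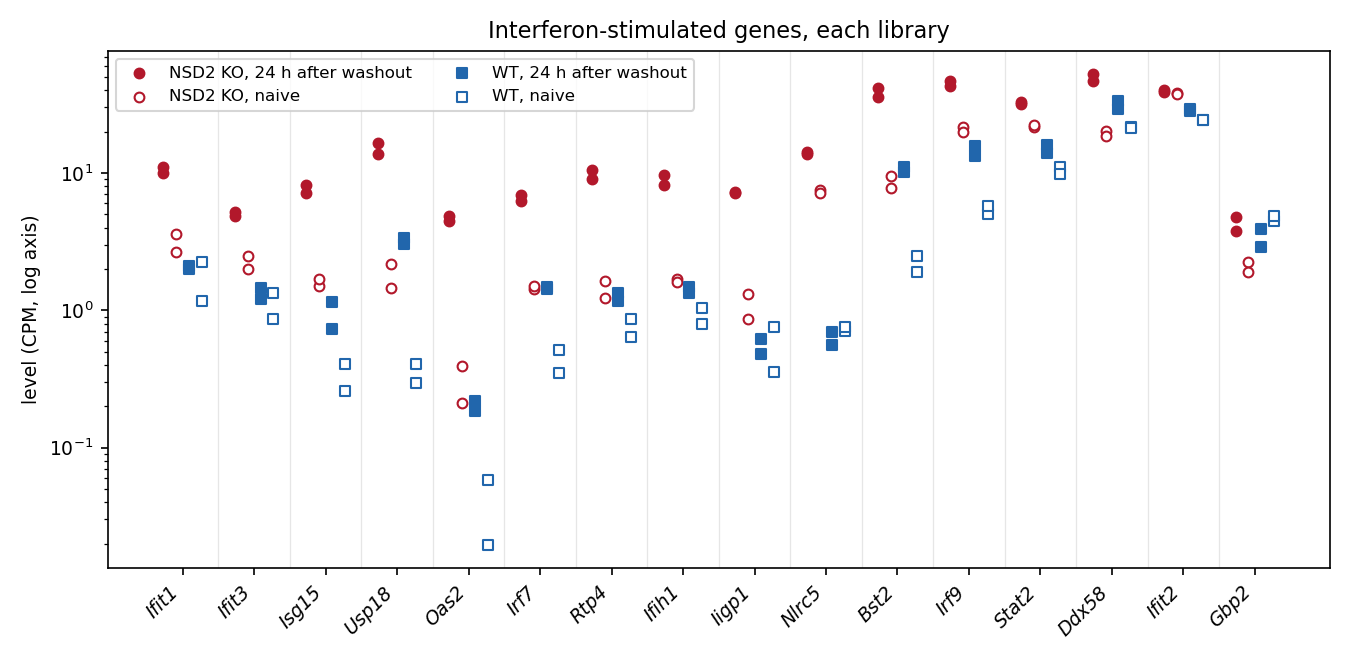
Level in CPM (log axis) of 16 interferon-stimulated genes in each library; filled symbols are cells 24 h after washout, open symbols naive cells, with NSD2 KO as circles left of WT as squares. Filled circles lie above filled squares for every gene shown except Gbp2, where the ranges 3.77 to 4.76 CPM in NSD2 KO and 2.91 to 3.92 CPM in WT overlap.

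The promoters of 4 of these genes are shown because their transcripts carry the interferon result: Isg15 and Bst2, whose gap between genotypes is wide, and Ifih1 and Gbp2, whose gap differs between washed-out and naive cells (below). Each is the 300 bases from 250 before to 50 after the RefSeq start in GRCm38.p6, read 5′ to 3′ on the gene's strand. Capitals mark matches to the core of the interferon-stimulated response element, TTTC then NN (any 2 bases) then TTTC, on either strand, where the matches in Isg15 and Bst2 overlap one another.
Isg15, chr4:156200769-156201068, minus strand: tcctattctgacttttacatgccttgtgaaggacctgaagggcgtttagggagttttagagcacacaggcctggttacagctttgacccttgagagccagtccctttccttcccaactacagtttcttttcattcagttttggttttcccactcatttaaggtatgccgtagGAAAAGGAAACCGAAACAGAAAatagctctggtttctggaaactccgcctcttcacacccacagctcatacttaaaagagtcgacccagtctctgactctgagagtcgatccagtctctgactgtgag
Bst2, chr8:71537423-71537722, minus strand: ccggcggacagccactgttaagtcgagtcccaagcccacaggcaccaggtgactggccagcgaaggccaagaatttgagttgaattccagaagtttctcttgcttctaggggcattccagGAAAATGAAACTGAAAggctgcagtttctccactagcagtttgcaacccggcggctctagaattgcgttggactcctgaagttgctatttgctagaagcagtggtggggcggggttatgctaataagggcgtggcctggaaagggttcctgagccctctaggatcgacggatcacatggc
Ifih1, chr2:62646206-62646505, minus strand: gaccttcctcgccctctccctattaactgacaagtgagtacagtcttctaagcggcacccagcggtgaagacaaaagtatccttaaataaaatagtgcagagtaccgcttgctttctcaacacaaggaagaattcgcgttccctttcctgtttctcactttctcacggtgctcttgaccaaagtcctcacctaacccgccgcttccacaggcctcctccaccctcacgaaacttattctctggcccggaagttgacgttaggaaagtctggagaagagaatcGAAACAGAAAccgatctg
Gbp2, chr3:142620413-142620712, plus strand: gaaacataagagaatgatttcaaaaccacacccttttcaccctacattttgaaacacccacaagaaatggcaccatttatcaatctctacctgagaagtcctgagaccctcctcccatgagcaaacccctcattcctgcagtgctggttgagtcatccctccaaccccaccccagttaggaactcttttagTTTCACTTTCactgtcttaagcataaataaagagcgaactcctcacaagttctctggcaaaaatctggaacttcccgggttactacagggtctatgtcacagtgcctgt

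Isg15 held 3 matches, Bst2 2, and Ifih1 and Gbp2 1 each. RefSeq promoters were found for 13 of 18 interferon-stimulated genes looked up, and 9 of the 13 held a match. Ifit2, Irf7, Irf9 and Lgals3bp held none, nor did Sp100, which was looked up besides these, so the promoters shown are all ones with a match. Of all 32851 promoters, 3.44% held one, and of the 10249 tested genes with a promoter 3.56% did. Tested antiviral effectors with a promoter had a match in 24 of 53 genes (45.3%), and the GTPases in 8 of 9 (88.9%). A match is a stretch of letters in this window and was not tested as a binding site.

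Among called genes averaging at least 10 CPM in the higher genotype, the largest rises in NSD2 KO were of genes nearly silent in WT. Crip1, a small LIM protein, had 41.0 and 34.6 CPM in NSD2 KO, against 0.0364 and 0 CPM in WT. With 1 WT count in all, the ratio was 2069-fold with a 95% counting interval of 371 to 81749. S1pr3, a receptor for sphingosine-1-phosphate, had 20.3 and 18.2 CPM in NSD2 KO, against 0.0364 and 0 CPM in WT and Tbx18, a T-box factor of mesenchyme, had 17.4 and 16.9 CPM in NSD2 KO, against 0 and 0.0370 CPM in WT. Lrp3 and Cdca7l behaved alike, with NSD2 KO libraries between 17.6 and 18.7 CPM and WT libraries at 0 to 0.0370 CPM. Ptgis, the prostacyclin synthase, had 37.5 and 39.8 CPM in NSD2 KO, against 0 and 0.148 CPM in WT, and Thbs2, a matricellular thrombospondin, had 72.9 and 74.6 CPM in NSD2 KO, against 0.182 and 0.111 CPM in WT. The largest rises reported here, the imprinted genes Rian, Meg3, Rtl1 and Slc38a4 included, had fitted log2 changes of 8.93 to 10.72, with edgeR adjusted p of at most 3.5e-21.

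A cluster of imprinted genes on chromosome 12 was expressed in NSD2 KO and low or near silent in WT. Imprinted genes are expressed from the copy of one parent. Rian, a maternally expressed noncoding RNA, had 455 and 457 CPM in NSD2 KO, against 0.546 and 0.444 CPM in WT (log2 change 9.83 ± 0.10, edgeR adjusted p = 3.0e-33). Meg3, its neighbour, had 203 and 185 CPM in NSD2 KO, against 0.291 and 0.296 CPM in WT (log2 change 9.35 ± 0.12, edgeR adjusted p = 3.0e-31). The paternally expressed Rtl1 had 27.9 and 29.5 CPM in NSD2 KO, against 0.0364 and 0.0370 CPM in WT and Dlk1 had 53.9 and 51.1 CPM in NSD2 KO, against 6.59 and 5.804 CPM in WT. In gene order, Begain, Dlk1, Meg3, Rtl1, Rian and Mirg formed an unbroken run of 6 tested neighbours that were all called and at least 4-fold higher in NSD2 KO, by log2 changes of 3.07 to 9.83. The run holds maternally and paternally expressed genes. Elsewhere Slc38a4, an amino acid transporter gene, had 153 and 161 CPM in NSD2 KO, against 0.328 and 0.222 CPM in WT and Ndn had 41.6 and 42.7 CPM in NSD2 KO, against 5.39 and 5.51 CPM in WT, while Peg10 had 107 and 99.9 CPM in NSD2 KO, against 218 and 198 CPM in WT, the opposite order. In all, 13 of 20 tested imprinted genes were higher and 6 lower, with a median log2 change of 1.25, beside 32.8% higher and 31.8% lower over all genes.

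The largest falls, chosen in the same way, included genes of excitable cells and of patterning. Scn3a, a sodium channel subunit, had 0 and 0.0312 CPM in NSD2 KO, against 14.2 and 16.6 CPM in WT, and Cacna2d1, a calcium channel subunit, had 0.0851 and 0.0312 CPM in NSD2 KO, against 37.7 and 34.8 CPM in WT. Dmd, the dystrophin gene, had 0.0851 and 0.0936 CPM in NSD2 KO, against 16.3 and 15.53 CPM in WT. NSD2 KO libraries were at or near 0 in all 3. Galnt13, a sugar transferase gene, Ndnf, a secreted neurotrophic factor gene, and Plcl2 had at most 0.187 CPM in NSD2 KO, against 22.03 to 30.5 CPM in WT. Bmpr1b, a BMP receptor gene, had 0 and 0.0936 CPM in NSD2 KO, against 11.2 and 9.80 CPM in WT and Robo1, a receptor for Slit guidance cues, had 0.142 and 0.0312 CPM in NSD2 KO, against 14.1 and 13.5 CPM in WT. Apart from Hoxd8, described next, the other 3 of the 12 largest falls were Xlr, AI662270 and Nxf3, which had at most 0.0936 CPM in NSD2 KO, against 13.01 to 38.6 CPM in WT.

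The HoxD cluster, whose factors pattern the body axis and limbs, was nearly silent in NSD2 KO. Hoxd8 had 0 and 0 CPM in NSD2 KO, against 20.9 and 21.6 CPM in WT, which is at least 477-fold lower in NSD2 KO against a floor of 3 counts over both libraries. Hoxd9 had 0 and 0.0312 CPM in NSD2 KO, against 6.95 and 8.21 CPM in WT, Hoxd4 had 0 and 0.0624 CPM in NSD2 KO, against 3.68 and 2.96 CPM in WT and Hoxd3 had 0 and 0 CPM in NSD2 KO, against 1.53 and 0.998 CPM in WT. Hoxd10 was also called lower (edgeR adjusted p = 3.0e-04), so that 5 of 5 tested HoxD genes of the list were lower in NSD2 KO. Over the whole family 12 of 25 tested genes were lower and 3 higher, with a median of -0.46, and Hoxa5, one of those higher, had 14.2 and 12.5 CPM in NSD2 KO, against 6.26 and 7.73 CPM in WT. Among 58 other patterning factors 26 were higher and 23 lower, beside 32.8% and 31.8% over all genes. Eya1 had 15.1 and 14.6 CPM in NSD2 KO, against 0.0728 and 0.0370 CPM in WT and Irx3 had 13.2 and 12.4 CPM in NSD2 KO, against 0.0728 and 0.111 CPM in WT, both higher in NSD2 KO, whereas the cardiac factor Nkx2-5 had 0.0284 and 0 CPM in NSD2 KO, against 7.17 and 7.54 CPM in WT and Zic1 had 0.0284 and 0.0624 CPM in NSD2 KO, against 8.19 and 8.17 CPM in WT, both lower.

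Neighbouring genes moved together in places. After matching 12985 gene names by symbol and 756 by synonym to RefSeq, 24 runs of at least 3 consecutive tested genes were all called and at least 4-fold changed in one direction, 11 higher and 13 lower in NSD2 KO, with 89 genes in all. They included Pcdhb genes and Pcdhac2 on chromosome 18 (7 genes, higher), Med12l to Igsf10 on chromosome 3 (6 genes, lower), Stxbp6 to Prkd1 on chromosome 12 (5 genes, lower) and the Hoxd8 to Hoxd10 run on chromosome 2. Copies in tandem, as in the Pcdhb, Serpinb9 and Apol9 runs, can share reads. By chromosome, the share of tested genes called and at least 2-fold changed was 14.1% to 23.8% on the autosomes and 20.8% on the X. On the Y 4 of the 5 tested genes were at least 2-fold higher in NSD2 KO (80.0%), with a median log2 change of 1.18.

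Most collagen genes with an at least 2-fold difference were higher in NSD2 KO. Of 33 collagen genes tested, 17 were higher and 10 lower in NSD2 KO, with a median log2 change of 0.67, beside 32.8% higher and 31.8% lower over all genes. At 2-fold, 15 were higher and 3 lower, beside 10.7% and 7.35% over all genes. Col2a1, the collagen of cartilage, had 284 and 254 CPM in NSD2 KO, against 1.38 and 1.07 CPM in WT (log2 change 7.77 ± 0.10, edgeR adjusted p = 2.4e-31). Col3a1 had 429 and 456 CPM in NSD2 KO, against 123 and 120.3 CPM in WT and the basement membrane gene Col4a1 had 771 and 765 CPM in NSD2 KO, against 336 and 319.6 CPM in WT, both higher in NSD2 KO in every library. Col6a3 had 286 and 269 CPM in NSD2 KO, against 967 and 894 CPM in WT, and the abundant Col1a2 had 2681 and 2700.0 CPM in NSD2 KO, against 4334 and 4429 CPM in WT, both lower (log2 changes -1.75 ± 0.05 and -0.70 ± 0.05, edgeR adjusted p = 8.0e-23 and 4.1e-13). More chains were higher than lower, yet the summed level of all 38 listed collagen genes was 7703 to 7798 CPM in NSD2 KO and 9369 to 9440 CPM in WT.

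Among 40 proteoglycan, elastic fibre and matricellular genes, 22 were higher and 12 lower, beside 32.8% higher and 31.8% lower over all genes. Spp1, or osteopontin, had 1319.6 and 1278 CPM in NSD2 KO, against 94.6 and 89.1 CPM in WT (log2 change 3.82 ± 0.069, edgeR adjusted p = 1.2e-27). Fbln1, an elastic fibre component, had 33.2 and 30.8 CPM in NSD2 KO, against 0.328 and 0.518 CPM in WT and Ltbp2, a TGF-beta binding protein gene, had 48.3 and 45.6 CPM in NSD2 KO, against 0.291 and 0.592 CPM in WT, both close to silent in WT. Decorin, Dcn, a small proteoglycan of fibroblast matrix, had 1.19 and 1.15 CPM in NSD2 KO, against 18.1 and 19.4 CPM in WT, and Thbs1 had 294 and 306 CPM in NSD2 KO, against 1342 and 1334 CPM in WT, both lower in NSD2 KO (log2 changes -3.99 ± 0.17 and -2.16 ± 0.047, edgeR adjusted p = 1.4e-18 and 1.1e-25). Thbs1 and Thbs2 thus moved in opposite directions. Matrix proteases and their inhibitors had 15 of 27 higher and 10 lower. Timp3, a metalloprotease inhibitor gene, had 189.5 and 188 CPM in NSD2 KO, against 1035 and 1078 CPM in WT (log2 change -2.48 ± 0.047, edgeR adjusted p = 3.0e-27), and Serpinf1 had 117 and 123 CPM in NSD2 KO, against 5.64 and 6.58 CPM in WT (log2 change 4.29 ± 0.10, edgeR adjusted p = 1.2e-24).

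Lists of surface and secreted signals follow, whose counts stand beside 32.8% higher and 31.8% lower over all genes. Vcam1, an adhesion molecule for leukocytes and an NF-kB target, had 146 and 149.9 CPM in NSD2 KO, against 2.51 and 2.92 CPM in WT. No gene of the NF-kB list differed more, at 5.77 ± 0.084 (edgeR adjusted p = 8.1e-30); 11 of its 18 genes were higher and 4 lower. Cdh11, the cadherin of mesenchyme, had 291 and 293 CPM in NSD2 KO, against 9.87 and 8.72 CPM in WT and Itga3 had 122 and 117 CPM in NSD2 KO, against 12.3 and 12.9 CPM in WT, both higher in NSD2 KO, while Cdh3 had 0.851 and 0.811 CPM in NSD2 KO, against 55.7 and 53.3 CPM in WT and the collagen receptor gene Itga11 had 11.3 and 11.6 CPM in NSD2 KO, against 73.7 and 70.9 CPM in WT, both lower. Of 45 integrins, cadherins, semaphorins and their relatives, 21 were higher and 17 lower. Hgf, the ligand of Met, had 26.3 and 27.3 CPM in NSD2 KO, against 0.218 and 0.222 CPM in WT, and the IGF-binding proteins went apart, with 60.5 and 62.9 CPM in NSD2 KO, against 0.364 and 0.333 CPM in WT for Igfbp3 and 1.503 and 1.09 CPM in NSD2 KO, against 69.1 and 80.0 CPM in WT for Igfbp6. Growth factors and receptors had 17 of 39 higher and 15 lower. Gdf15, a stress-induced cytokine, had 0.312 and 0.281 CPM in NSD2 KO, against 19.6 and 21.6 CPM in WT, and Gdf5 had 0.284 and 0.374 CPM in NSD2 KO, against 12.997 and 13.9 CPM in WT, both lower; the TGF-beta and BMP list had 17 of 33 higher and 11 lower. Of 32 Wnt pathway genes 17 were higher and 9 lower, with the inhibitors Dkk3 (61.7 and 64.0 CPM in NSD2 KO, against 0.328 and 0.333 CPM in WT) and Sfrp1 (65.5 and 68.6 CPM in NSD2 KO, against 1.86 and 2.03 CPM in WT) higher and the ligand Wnt10b (0.737 and 0.593 CPM in NSD2 KO, against 16.5 and 15.2 CPM in WT) lower.

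**Figure D3:**
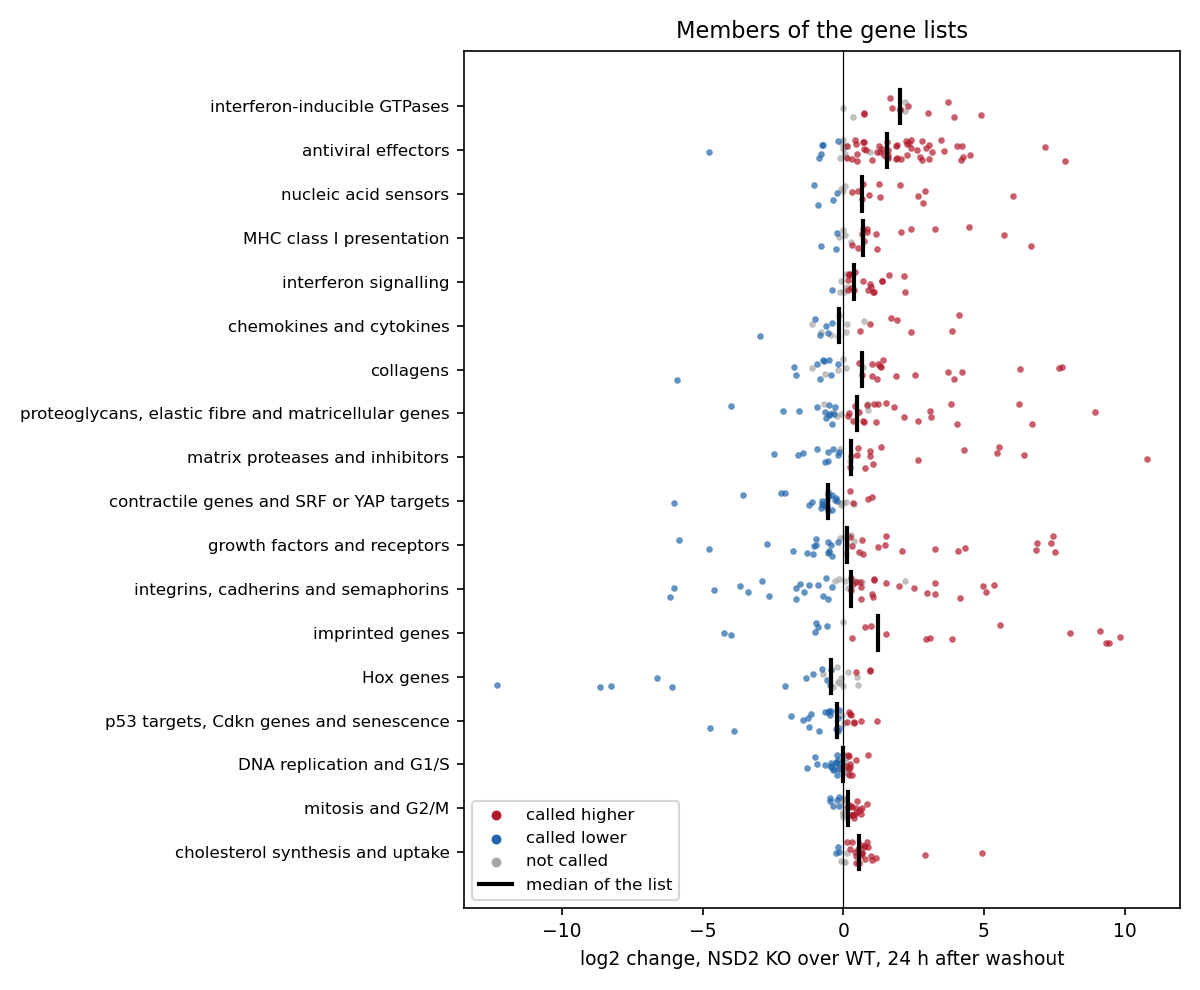
Log2 change of NSD2 KO over WT 24 h after washout (horizontal axis) for every tested member of 18 gene lists (rows), coloured by call, with a black bar at the list's median. The interferon-inducible GTPases and antiviral effectors have the highest medians, 2.02 and 1.55, the contractile genes the lowest, -0.54; Hox genes reach -12.34.

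Contractile genes were lower in NSD2 KO. The summed level of all 32 listed smooth muscle, actin cytoskeleton and SRF or YAP target genes was 12460 to 12780 CPM in NSD2 KO and 16860 to 17090 CPM in WT. Of the 31 tested, 22 were lower and 4 higher, with a median log2 change of -0.54. Lower calls were 31.8% of all genes tested. Acta2, smooth muscle actin, had 889 and 905 CPM in NSD2 KO, against 1494 and 1613 CPM in WT (log2 change -0.79 ± 0.052, edgeR adjusted p = 6.3e-14). Actg2, the other smooth muscle actin, had 2.04 and 1.72 CPM in NSD2 KO, against 122 and 124 CPM in WT (log2 change -6.03 ± 0.11, edgeR adjusted p = 1.2e-27), and the YAP target Ankrd1 had 9.61 and 9.23 CPM in NSD2 KO, against 116 and 108 CPM in WT (log2 change -3.57 ± 0.066, edgeR adjusted p = 1.5e-27). Tagln, another smooth muscle gene, had 152 and 148 CPM in NSD2 KO, against 122 and 133 CPM in WT and was slightly higher (0.23 ± 0.049, edgeR adjusted p = 1.3e-04).

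Cell cycle genes differed by less. Of 40 DNA replication and G1/S genes, 10 were higher and 16 lower, and of 30 mitotic genes 16 were higher and 6 lower, with medians of -0.0027 and 0.17. Over all genes 32.8% were higher and 31.8% lower, 64.7% in either direction. Ccnd2 had 245 and 235 CPM in NSD2 KO, against 595 and 572 CPM in WT and Ccnd1 had 360.2 and 359.9 CPM in NSD2 KO, against 688 and 691 CPM in WT, both cyclins of G1 and both lower in NSD2 KO (log2 changes -1.28 ± 0.046 and -0.94 ± 0.041, edgeR adjusted p = 1.7e-20 and 3.4e-18). Of 28 p53 targets, Cdkn and senescence genes, 18 were lower and 8 higher, and the number higher was 5 without WT replicate 1 and 5 with DESeq2. Cdkn2a, which encodes p16 and Arf, had 2.75 and 2.78 CPM in NSD2 KO, against 39.5 and 43.3 CPM in WT (log2 change -3.90 ± 0.10, edgeR adjusted p = 3.7e-24), and the adhesion gene Perp had 6.10 and 7.05 CPM in NSD2 KO, against 169 and 181 CPM in WT (log2 change -4.74 ± 0.068, edgeR adjusted p = 5.1e-30). Trp53 itself had 120.3 and 125 CPM in NSD2 KO, against 105 and 105 CPM in WT. Immediate early genes had 18 of 32 higher and 11 lower, and ATF4 and unfolded protein stress targets 7 of 28 higher and 11 lower, with medians of 0.37 and -0.021.

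The naive cells, in other libraries, held most of these differences already. In NSD2 KO against WT at naive 0 h, 9258 genes were called (67.1%). Higher in naive NSD2 KO were 34.3% of all genes and lower 32.7%. Of the 4530 genes higher after washout, 3991 (88.1%) were also higher in naive NSD2 KO, and these are 84.2% of the 4738 genes higher there. Of the 4395 lower, 3826 (87.1%) were also lower in naive NSD2 KO, 84.7% of the 4520 lower there. Opposite calls were made for 16 and 12 genes. After 2 h of restimulation 9147 genes were called (66.3%; 35.6% higher and 30.7% lower in NSD2 KO), and 3574 higher and 3286 lower genes were called in the same direction under all 3 conditions. Rian, for example, averaged 459 ± 9.19 CPM in naive NSD2 KO and 0.720 ± 0.210 CPM in naive WT (SD, n = 2 each), and Hoxd8 0.0513 ± 0.0395 CPM in naive NSD2 KO and 21.9 ± 1.26 CPM in naive WT.

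The gap between genotypes itself differed between washed-out and naive cells at few genes. The difference, log2 change of NSD2 KO over WT after washout minus that in naive cells, was called for 445 of 13802 genes (3.22%), 236 above 0 and 209 below 0. Among the 445, the gap had the same sign and was larger after washout at 103 genes and smaller at 191, was called only after washout at 51 and only in naive cells at 72, and had turned round at 28. The count was 281 without WT naive replicate 1, 262 without NSD2 KO naive replicate 2, 274 without NSD2 KO pretreated replicate 2 and 219 without the 3 libraries low in Rn45s and Lars2, of which 199 were among the 445. How long the naive cells were kept is not given in the labels, so the interferon exposure and any difference in time in culture cannot be told apart. Cell cycle genes were mostly higher in washed-out than in naive cells of both genotypes. Of 40 DNA replication and G1/S genes, 29 were higher in NSD2 KO and 36 in WT, with 1 lower in each. Of 30 mitotic genes, 22 and 27 were higher and none lower. Over all genes 11.1% were higher in NSD2 KO and 12.6% in WT. The part of this in the differences below was not tested.

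**Figure D4:**
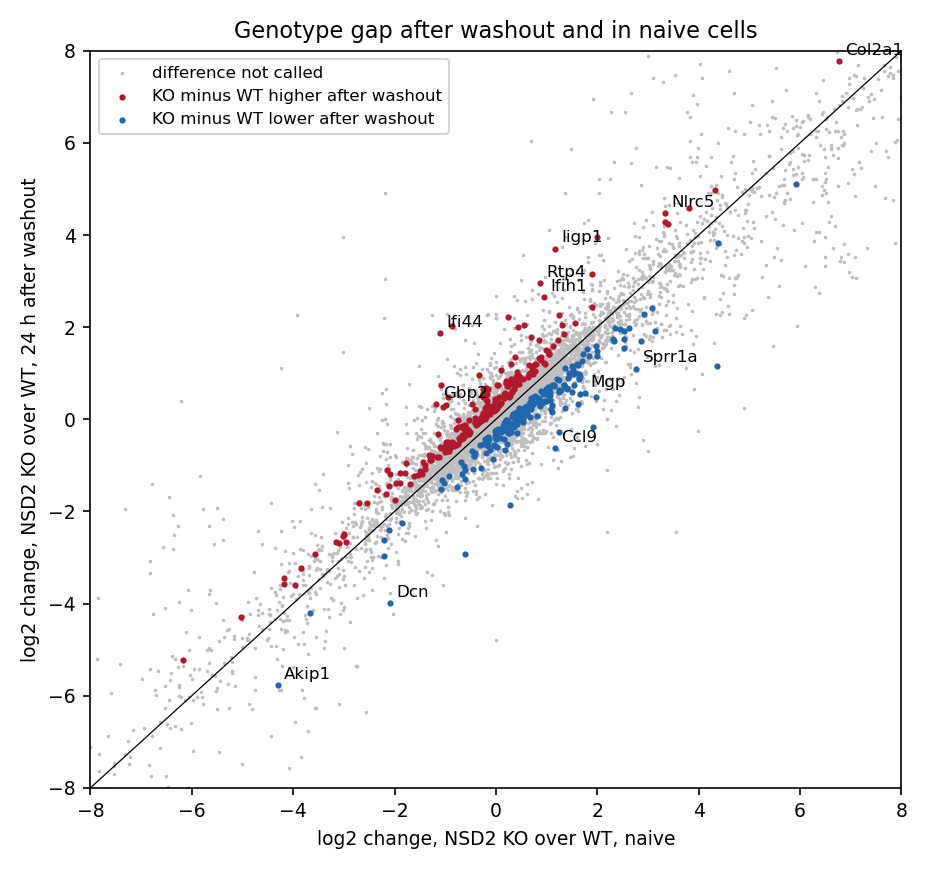
Log2 change of NSD2 KO over WT 24 h after washout (vertical axis) against that in naive cells (horizontal axis), 1 point per gene, with the line of equal values; red and blue mark genes called for the difference. Most genes lie along the line; Ifi44, Iigp1, Rtp4 and Ifih1 lie above it and Dcn, Ccl9 and Mgp below it, and 123 genes with a change beyond 8 on either axis are not shown.

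At part of the interferon genes the difference was above 0. For a gene lower in naive NSD2 KO, such as Gbp2 and Ifi44 below, this is a narrower or reversed gap, not a wider one. Of the antiviral effectors 14 of 65 were called above 0 and none below by this test, and of the GTPases 6 of 15, against 1.71% of all genes. The 14 became 9 without WT pretreated replicate 1. An effector was called below 0 when that library, WT naive replicate 1 or NSD2 KO pretreated replicate 1 was left out. Iigp1 averaged 7.24 ± 0.0871 CPM in NSD2 KO and 0.550 ± 0.0978 CPM in WT after washout, against 1.09 ± 0.313 CPM and 0.554 ± 0.281 CPM in the naive cells of these genotypes, a difference of 2.54 ± 0.49 (edgeR adjusted p = 0.00191). Ifih1 averaged 8.92 ± 1.15 CPM in NSD2 KO and 1.41 ± 0.0932 CPM in WT after washout, and 1.66 ± 0.0636 CPM and 0.915 ± 0.179 CPM in naive NSD2 KO and WT (difference 1.71 ± 0.31, edgeR adjusted p = 7.8e-04). For Ddx58 the change after washout was 0.67 ± 0.064; in naive cells it was -0.15 ± 0.074 and did not pass (difference 0.82 ± 0.10, edgeR adjusted p = 2.3e-06). Gbp2 was lower in naive NSD2 KO (-1.17 ± 0.17) and not called after washout (difference 1.502 ± 0.23, edgeR adjusted p = 1.4e-04). Ifi44 turned round, with 1.87 ± 0.20 after washout and -1.11 ± 0.41 in naive cells (difference 2.97 ± 0.46, edgeR adjusted p = 1.2e-04). H2-D1 had a difference of 0.64 ± 0.086 (edgeR adjusted p = 1.7e-05) and B2m of 0.36 ± 0.065 (edgeR adjusted p = 0.00111).

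Rtp4 (difference 2.08 ± 0.33, edgeR adjusted p = 1.4e-04), Sp100 (1.25 ± 0.32, edgeR adjusted p = 0.0211) and Nlrc5 (1.14 ± 0.29, edgeR adjusted p = 0.0212) depended on single libraries. Rtp4 was lost without WT naive replicate 1 (adjusted p = 0.125). Sp100 was lost without WT naive replicate 2 (adjusted p = 0.149), NSD2 KO naive replicate 2 (0.113), or WT pretreated replicate 1 (0.0563) or 2 (0.0689). Nlrc5 was lost without WT naive replicate 1 (adjusted p = 0.221) or 2 (0.0628), NSD2 KO naive replicate 2 (0.0562) or WT pretreated replicate 2 (0.143). The gaps of Usp18, Bst2, Irf9, Stat2, Lgals3bp, Ifit1, Ifit2, Ifit3 and Isg15 were not called as different between the conditions, at -0.17 ± 0.36, -0.014 ± 0.17, -0.35 ± 0.13, 0.061 ± 0.11, 0.075 ± 0.13, 1.30 ± 0.38, -0.17 ± 0.10, 0.78 ± 0.48 and 0.59 ± 0.44, which does not show that they are equal.

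Differences above 0 were also called for genes outside the interferon pathway. Npnt, the matrix ligand nephronectin, averaged 12.1 ± 1.40 CPM in NSD2 KO and 2.92 ± 0.00576 CPM in WT after washout, and 6.50 ± 0.397 CPM and 4.41 ± 0.178 CPM in naive NSD2 KO and WT (difference 1.49 ± 0.20, edgeR adjusted p = 2.0e-05). Cemip, which takes part in hyaluronan breakdown, was higher in NSD2 KO after washout (0.31 ± 0.089) and lower in naive NSD2 KO (-0.98 ± 0.082), a difference of 1.29 ± 0.12 (edgeR adjusted p = 3.9e-08). Synpo2, an actin-associated gene, moved likewise (1.28 ± 0.20, edgeR adjusted p = 1.7e-04), and Postn, or periostin, had a difference of 1.09 ± 0.15 (edgeR adjusted p = 3.2e-05). Of the contractile genes 11 of 31 had a difference called above 0 and 1 had one below 0; the 11 became 6 without WT naive replicate 1, NSD2 KO naive replicate 1 or NSD2 KO pretreated replicate 1, and without the 3 libraries low in Rn45s and Lars2. The shares of all genes were 1.71% above 0 and 1.51% below 0. Most contractile genes were lower in NSD2 KO, 26 of 31 in naive cells and 22 after washout. For a gene lower in naive NSD2 KO, a difference above 0 is a narrower or reversed gap, not a wider one. Tagln is one of the 11 contractile genes above 0, at 0.65 ± 0.07 (edgeR adjusted p = 3.5e-07).

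On the other side, Dcn averaged 1.17 ± 0.0262 CPM in NSD2 KO and 18.7 ± 0.956 CPM in WT after washout, and 4.21 ± 0.357 CPM and 18.5 ± 2.35 CPM in naive NSD2 KO and WT (difference -1.91 ± 0.24, edgeR adjusted p = 6.2e-06). The chemokine Ccl9 was lower in NSD2 KO after washout (-0.63 ± 0.11) and higher in naive NSD2 KO (1.16 ± 0.10), a difference of -1.79 ± 0.14 (edgeR adjusted p = 4.0e-09). Mgp, an inhibitor of calcification, averaged 213 ± 23.5 CPM in NSD2 KO and 144 ± 4.14 CPM in WT after washout, and 348 ± 4.10 CPM and 104 ± 4.02 CPM in naive NSD2 KO and WT (difference -1.18 ± 0.10, edgeR adjusted p = 5.6e-09). Sprr1a, Neurl1b and Cp, the copper carrier ceruloplasmin, were higher in NSD2 KO under both conditions with a smaller gap after washout (differences -1.67 ± 0.30, -1.22 ± 0.19 and -1.13 ± 0.11, edgeR adjusted p = 7.0e-04, 1.6e-04 and 8.3e-08). Il33 differed by -2.10 ± 0.25 (edgeR adjusted p = 2.3e-06). Akip1 (-1.47 ± 0.41, edgeR adjusted p = 0.0461) and Prl2c2 (-1.16 ± 0.31, edgeR adjusted p = 0.0285) were near the threshold. Both calls were lost with DESeq2 (adjusted p = 0.0694 and 0.0515), and that of Akip1 also in an edgeR fit of the compared groups alone (adjusted p = 0.067). Akip1 was lost when any 1 of 6 libraries was left out (adjusted p = 0.0565 to 0.233), the exceptions being WT and NSD2 KO naive replicate 2, and Prl2c2 without WT naive replicate 1 (0.229) or 2 (0.0776), NSD2 KO naive replicate 2 (0.153), NSD2 KO pretreated replicate 1 (0.0814) or WT pretreated replicate 2 (0.185).

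Cholesterol genes were mostly higher in NSD2 KO, and by less after washout than in naive cells. This list holds the enzymes that build cholesterol from acetyl-CoA, the fatty acid synthase gene Fasn, and genes of cholesterol uptake and regulation. Many of its members are controlled by SREBP factors. After washout 22 of 29 were higher and 3 lower in NSD2 KO, with a median log2 change of 0.54. In naive cells 28 were higher and none lower by this test, with a median of 1.09. The shares over all genes were 32.8% higher and 31.8% lower after washout, and 34.3% and 32.7% in naive cells. The difference between the conditions was called below 0 for 25 of the 29, against 1.51% of all genes. None was called above 0 by this test. The median difference was -0.54, and all 29 fitted values lay below 0, against 6868 of the 13802 genes tested. Cell cycle lists leaned the same way by less. All 30 mitotic genes (1 called) and 33 of 40 DNA replication and G1/S genes (4 called) lay below 0, both with medians of -0.14. Within the genotypes, 2 of the 29 were higher and 11 lower in washed-out than in naive NSD2 KO cells, with a median log2 change of -0.087, and 23 were higher and 1 lower in washed-out than in naive WT cells, with a median of 0.42. Over all genes, 11.1% were higher and 10.6% lower after washout in NSD2 KO, and 12.6% higher and 11.4% lower in WT.

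Insig1, which retains the SREBP activator in the endoplasmic reticulum, averaged 196 ± 4.38 CPM in NSD2 KO and 124 ± 2.65 CPM in WT after washout, and 208 ± 6.22 CPM and 79.2 ± 1.16 CPM in naive NSD2 KO and WT (difference -0.74 ± 0.068, edgeR adjusted p = 2.3e-08). Idi1 (-0.86 ± 0.064, edgeR adjusted p = 1.0e-09) and Mvd (-0.80 ± 0.11, edgeR adjusted p = 1.5e-05), both enzymes of the mevalonate pathway, moved likewise. Cyp51 and Fasn, the fatty acid synthase gene, were higher in naive NSD2 KO and lower in washed-out NSD2 KO than in WT (differences -0.52 ± 0.061 and -0.56 ± 0.065, edgeR adjusted p = 2.2e-06 and 1.3e-06). Stat3 and Socs3 of the interferon signalling list also had smaller gaps (-0.44 ± 0.084 and -0.63 ± 0.12, edgeR adjusted p = 0.00147 and 0.00225).

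**Figure D5:**
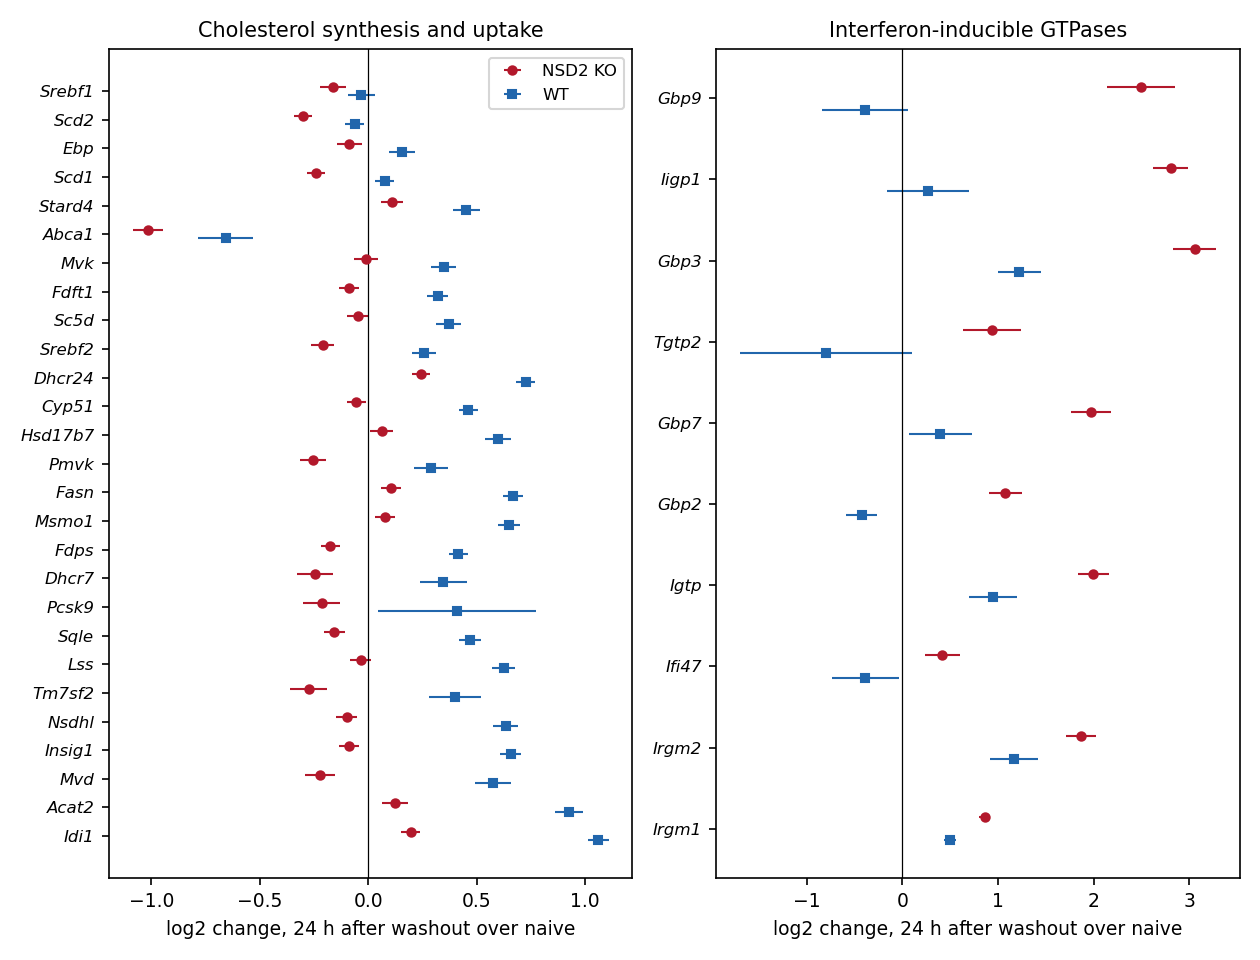
Log2 change of washed-out over naive cells with its standard error (horizontal axis), in NSD2 KO (red circles) and WT (blue squares), for 27 cholesterol genes and the 10 interferon-inducible GTPases reaching 1 CPM in a group. Most cholesterol genes sit to the right in WT and near 0 in NSD2 KO (medians over the whole list -0.087 in NSD2 KO and 0.42 in WT), while the GTPases sit further right in NSD2 KO.

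Fibroblast identity was checked with marker genes. Of 14 tested fibroblast markers 9 were higher and 5 lower in NSD2 KO (over all genes 32.8% and 31.8%). The summed level of all 15 fibroblast markers was 13050 to 13450 CPM in NSD2 KO and 14750 to 14830 CPM in WT. Vim had 4062 and 3876 CPM in NSD2 KO, against 4861 and 5197 CPM in WT, so that this mesenchymal filament gene was abundant in all 4 libraries. Thy1, a fibroblast surface marker, had 30.1 and 28.0 CPM in NSD2 KO, against 0.109 and 0.111 CPM in WT and Pdgfra, a receptor for platelet-derived growth factor, had 94.0 and 95.2 CPM in NSD2 KO, against 5.35 and 5.99 CPM in WT, both low or nearly absent in WT. Ptprc, Emr1, Tyrobp and Spi1, which define blood cells and macrophages, Pecam1 and Emcn of endothelium, Epcam of epithelium, Myod1 and Pax7 of muscle precursors, Rbfox3 of neurons and Adipoq of fat cells were at or near 0 in all 4 libraries and did not pass the filter. The summed levels of the other marker lists cover all members among the 24015 genes, tested or not. Macrophage and blood markers summed to 6.67 to 6.95 CPM in NSD2 KO and 15.8 to 16.8 CPM in WT (18 genes, 4 tested). For endothelium the sums were 17.5 to 18.9 CPM in NSD2 KO and 4.399 to 4.84 CPM in WT (14 genes, 7 tested). For skeletal muscle they were 8.14 to 8.62 CPM in NSD2 KO and 40.8 to 43.5 CPM in WT (16 genes, 5 tested). The 5 tested genes were split, with 2 higher and 2 lower in NSD2 KO and a median log2 change of 0.38. In a fit of the compared groups alone 1 was higher. Neural and glial markers summed to 364 to 376 CPM in NSD2 KO and 30.9 to 32.9 CPM in WT (18 genes, 7 tested). Among them Nes, an intermediate filament also made by other precursor cells, had 305 and 294 CPM in NSD2 KO, against 1.35 and 2.07 CPM in WT. Cartilage and bone markers summed to 1582 to 1659 CPM in NSD2 KO and 149 to 156 CPM in WT (18 genes, 11 tested), mainly Spp1 and Col2a1. Epithelial markers summed to 64.7 to 69.0 CPM in NSD2 KO and 21.8 to 22.97 CPM in WT (16 genes, 5 tested), mainly Krt19. Adipocyte markers summed to 97.6 to 100.2 CPM in NSD2 KO and 73.9 to 77.6 CPM in WT (12 genes, 5 tested). Mesothelial and smooth muscle markers summed to 173 to 186 CPM in NSD2 KO and 302 to 306 CPM in WT (11 genes, 8 tested). The part of cell composition in the results above was not tested. Y-linked Kdm5d had 42.6 and 42.3 CPM in NSD2 KO, against 14.7 and 14.8 CPM in WT and Uty had 37.2 and 35.6 CPM in NSD2 KO, against 13.1 and 12.5 CPM in WT, so that these genes were expressed in both genotypes and higher in NSD2 KO; the part of that in other differences was not tested.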

How the data were processed

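Per the labels' protocols, TRIzol RNA went into NuGEN Ovation libraries that were read from both ends on a HiSeq2000. The authors deposited raw counts of reads per gene. The submitters' processing notes name STAR 2.5.2b, HTSeq, bcl2fastq 2.15 and mm9. The sources used here give neither the annotation nor the strand setting, so overlapping and antisense genes and near-identical copies are uncertain. The 5 HTSeq summary lines were left out; reads in no gene were 39.2% to 40.1% of the sum of gene, ambiguous and no-gene reads in the 4 libraries.

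The members and gene lists were chosen with earlier results of these data known. Genes passing filterByExpr (minimum count 10) were fitted over all 15 libraries in 8 groups (7 residual degrees of freedom) with edgeR 4.0.16 (R 4.3.3), TMM scaling and the quasi-likelihood test, with Benjamini-Hochberg adjusted p below 0.05 as the threshold; standard errors are the log2 change over the square root of F. Named genes are Whsc1, the 12 largest called rises and falls with non-overlapping libraries and at least 10 CPM in the higher group, up to 4 genes with the smallest p per list, 18 interferon-stimulated genes, and the 8 largest genotype differences in each direction with at least 5 CPM in a group. A few genes meeting the rule are not reported here. Other named genes were chosen after their values were seen. Counts of 0 to 3 were bounded with a floor of 3 counts or a 95% interval, which cover counting error only.

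Counts were simulated with the fitted dispersions, with 67 genes changed 1.5-fold, 67 changed 2-fold and 66 changed 4-fold. In the simulated NSD2 KO against WT after washout the test recovered 89.6%, 98.5% and 100% of these, with 13 false calls among 13602 unchanged genes. The changed genes were all well counted, whereas in the data 64.7% of genes were called, so these rates hold for the simulated setting only. Replicates differed by more than counting error (the chi-square divided by its degrees of freedom was 72.2 in NSD2 KO, 3.84 without Rn45s and Lars2, and 5.94 in WT, 4.81 without them), so each counted as 1 sample. The alternatives were RLE scaling, no low-count filter, DESeq2 1.42.0, a fit of the compared groups alone, a replicate block, counts without Rn45s and Lars2, each library left out and, chosen after seeing the data, the 3 libraries low in Rn45s and Lars2 left out. Figures were drawn with matplotlib 3.10.9.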

Additional observations from a re-analysis of the deposited data

Results flagged for a closer look

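The effect of washout differed between NSD2 KO and WT, by the test of that difference itself, for 445 genes, for 14 antiviral effectors, 6 interferon-inducible GTPases and 11 contractile genes above 0, and for 25 cholesterol genes below 0. Among the genes named in the text, the log2 differences above 0 were 2.54 for Iigp1, 2.079 for Rtp4, 1.708 for Ifih1, 2.974 for Ifi44, 1.502 for Gbp2, 1.252 for Sp100, 1.143 for Nlrc5, 0.821 for Ddx58, 0.6362 for H2-D1 and 0.3554 for B2m in the interferon response. Outside it they were 1.494 for Npnt, 1.293 for Cemip, 1.283 for Synpo2, 1.085 for Postn and 0.6538 for Tagln.

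The log2 differences below 0 were -1.906 for Dcn, -1.788 for Ccl9, -1.666 for Sprr1a, -1.467 for Akip1, -1.216 for Neurl1b, -1.181 for Mgp, -1.164 for Prl2c2, -1.126 for Cp and -2.102 for Il33. In the signalling list they were -0.4417 for Stat3 and -0.6278 for Socs3. In the cholesterol list they were -0.7429 for Insig1, -0.865 for Idi1, -0.7952 for Mvd, -0.5622 for Fasn and -0.5152 for Cyp51. The calls of Rtp4, Sp100, Nlrc5, Akip1 and Prl2c2 depended on single libraries, and those of Akip1 and Prl2c2 were also lost with DESeq2. With 2 libraries per group no sample could be tested for standing apart from its group.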

How the results depend on the processing

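The number of genes called between NSD2 KO and WT after washout was 7904 (DESeq2) to 9054 (replicate block) over the alternatives, and 8008 to 8113 with 1 of the 4 libraries left out; genes at least 2-fold changed numbered 2239 to 2552. The replicate numbers do not pair the samples (correlation of deviations 0.029 between the genotypes after washout), and with only 2 numbers the replicate block is given as a count. The number of genes whose washout effect differed between the genotypes moved most: 445 became 262 to 423 with 1 library left out and 219 without the 3 libraries low in Rn45s and Lars2, 199 of them among the 445; the cause was not tested. With the replicate block it was 650, without a low-count filter 601 and with DESeq2 364. No named gene reversed. Of the named genes' values after washout under the alternatives, 2760 kept direction and side of the threshold, 14 lost the call and 6 gained it; for the genotype difference these were 2231, 84 and 28. The 2 libraries per group limit every spread estimate.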
